A study of Mus musculus with 14 samples.

Results

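Methylated DNA at CpG-poor promoters was examined in 14 samples of cultured mouse cells. The method, MBD-seq, pulls fragments of sheared DNA out of solution with a protein domain that binds methylated CpGs, and sequences them; a region where the sequenced tags gather, called a peak, is one that carries methylation. A peak was counted when its summit lay within 1000 bp of the 5' end of a protein-coding gene on the 19 autosomes and the 1 kb centred on that 5' end was poor in CpG, with a GC content under 55% or an observed/expected CpG ratio under 0.6. Of 21418 autosomal protein-coding promoters, 12979 were CpG-poor by this rule and 8439 were CpG-rich. Either criterion was enough: 9165 met both, 2306 the CpG ratio alone and 1508 the GC content alone. This last set, not poor by the CpG ratio, includes Asz1, Ebf2, Hist3h2ba, Hormad1, Mkrn3, Tex14, Zfp180 and Zzz3, named below. The samples held 18054 peaks at CpG-poor promoters among 1012200 autosomal peaks (1.78%), and 2999 of the 12979 promoters (23.1%) had a peak in at least 1 sample.

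Induced pluripotent stem (iPS) cells made up 8 of the samples, with 4 clones of genotype Aid+/+ and 4 of genotype Aid-/-. The others were 3 lines of embryonic stem (ES) cells and embryonic fibroblasts (MEFs) of genotype Aid+/+ from 3 cultures. The labels give the Aid-/- clones as Aid disrupted. All iPS clones and MEFs carried a Nanog-GFP reporter on a mixed C57BL6, DBA and 129S4 background. The iPS clones, each named as a clone, at passage 6 grown on gelatin with puromycin, had been made from MEFs with retroviruses carrying Oct3/4, Sox2, Klf4 and c-Myc, and the cDNAs stay integrated in their genomes. The MEFs, at passage 3, came from individual embryos. The ES lines were RF8 (129SV, passage 19, replicate 1), MG1.19 (129Ola, replicate 2) and B6 ES (C57BL6, replicate 3), and their labels give no Aid genotype or reporter. The clone names open with a number, read here as that of an experiment. The study lists experiments by such numbers, but that of Aid-/- replicates 3 and 4 is not in its list. By this reading 1 experiment gave Aid+/+ replicates 3 and 4 and Aid-/- replicates 1 and 2. Each of the other pairs of clones then came from an experiment that holds 1 genotype here. No source used here ties the clones of a genotype to separate embryos, so p-values measure the spread between these clones. The comparisons asked whether loss of Aid, or the cell type, was accompanied by a difference in methylation at these promoters.

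Most mammalian promoters are either CpG islands, which are kept free of methylation in nearly all cells, or CpG-poor stretches, in which the few CpGs are often methylated where the gene is silent. CpG-poor promoters belong mainly to genes used in few tissues, such as those of keratins, crystallins, blood cells and chemosensory receptors. The capture of a fragment needs several methylated CpGs, so the absence of a peak at a promoter with very few CpGs does not show that it is unmethylated. In a population of cells, methylation in fewer cells and a lower level in every cell cannot be told apart.

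The stretches that carried the peaks are shown first for 10 promoters, to let the spacing of the CpGs be read. Each is 150 bases of NCBI build 37 around the median summit, moved where needed off an annotated untranslated region, on the strand of the gene from 5' to 3', with CpGs in capitals. The first pair, of the genes of a calmodulin-like protein and of recoverin, a calcium sensor of photoreceptors, had a peak in all 14 samples, and Tex101, a germ cell surface protein, had one in 13.
Calml3 (chr13:3803102-3803251, minus strand): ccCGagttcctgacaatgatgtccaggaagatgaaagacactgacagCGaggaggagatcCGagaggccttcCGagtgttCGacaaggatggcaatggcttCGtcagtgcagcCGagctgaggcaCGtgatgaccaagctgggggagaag
Rcvrn (chr11:67509078-67509227, plus strand): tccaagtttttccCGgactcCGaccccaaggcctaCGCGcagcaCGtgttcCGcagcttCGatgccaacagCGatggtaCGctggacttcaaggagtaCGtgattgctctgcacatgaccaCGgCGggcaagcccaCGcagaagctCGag
Tex101 (chr7:25457077-25457226, minus strand): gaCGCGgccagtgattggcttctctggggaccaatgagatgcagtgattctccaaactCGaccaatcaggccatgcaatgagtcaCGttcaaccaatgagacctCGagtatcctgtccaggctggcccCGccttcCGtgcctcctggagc
The next 4 had a peak in all 8 iPS clones and in no MEF. Pou5f1 encodes the pluripotency factor Oct3/4, Mrgpra6 a receptor of sensory neurons, Sohlh1 a transcription factor of germ cells and Pde6c a phosphodiesterase of cone photoreceptors.
Pou5f1 (chr17:35643165-35643314, plus strand): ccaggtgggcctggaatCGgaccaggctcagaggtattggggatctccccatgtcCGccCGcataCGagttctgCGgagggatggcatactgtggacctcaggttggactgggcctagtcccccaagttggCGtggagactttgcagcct
Mrgpra6 (chr7:54444575-54444724, minus strand): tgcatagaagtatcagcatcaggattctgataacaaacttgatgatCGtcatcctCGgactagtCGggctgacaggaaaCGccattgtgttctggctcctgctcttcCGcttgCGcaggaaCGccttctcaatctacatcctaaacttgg
Sohlh1 (chr2:25702168-25702317, minus strand): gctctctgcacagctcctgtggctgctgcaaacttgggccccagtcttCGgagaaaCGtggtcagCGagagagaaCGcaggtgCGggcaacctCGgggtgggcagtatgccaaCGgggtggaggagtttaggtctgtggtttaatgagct
Pde6c (chr19:38207603-38207752, plus strand): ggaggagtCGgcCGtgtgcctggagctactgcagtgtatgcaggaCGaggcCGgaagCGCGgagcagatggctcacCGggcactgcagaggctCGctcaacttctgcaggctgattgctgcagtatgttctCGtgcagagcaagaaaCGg
The last 3 showed the other patterns. Mkrn3, an imprinted gene, and Gtf2a1l, a testis form of a general transcription factor, had a peak in all 3 MEFs and in no pluripotent sample, and Slamf6, a receptor of lymphocytes, had one in all 4 Aid+/+ iPS clones and in no Aid-/- clone.
Mkrn3 (chr7:69564589-69564738, minus strand): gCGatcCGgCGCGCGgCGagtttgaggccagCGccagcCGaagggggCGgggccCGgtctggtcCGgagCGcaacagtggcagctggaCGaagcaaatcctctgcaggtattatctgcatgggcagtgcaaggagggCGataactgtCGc
Gtf2a1l (chr17:89067847-89067996, plus strand): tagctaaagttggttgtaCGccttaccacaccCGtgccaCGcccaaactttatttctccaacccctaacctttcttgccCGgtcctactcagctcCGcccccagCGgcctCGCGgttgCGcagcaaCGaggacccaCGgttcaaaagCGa
Slamf6 (chr1:173848022-173848171, plus strand): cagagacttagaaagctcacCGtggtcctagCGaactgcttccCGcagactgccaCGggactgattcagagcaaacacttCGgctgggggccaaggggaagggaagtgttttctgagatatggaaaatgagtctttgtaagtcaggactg
The 10 stretches held between 5 CpGs (Slamf6) and 15 CpGs (Mkrn3) in 150 bases, and the Pou5f1 stretch held 6.

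The libraries had 20.1 to 36.9 M total tags (M, mega) and 6.65 to 19.6 M after duplicates were filtered, and 31650 to 106408 autosomal peaks. Peak lists came from 4 processing runs, told apart by the peak caller's version and the run name in the headers, and the runs are lettered here. Aid+/+ iPS replicate 1 was processed in run A with 3 Aid-/- clones (replicates 1, 2 and 4), and the other Aid+/+ clones in run B. Run C took in all ES lines, the remaining Aid-/- clone and the first MEF culture, and run D the other MEF cultures. The 4 samples of run A stood apart: they had a peak at 6.02 to 10.8% of CpG-rich promoters, against 1.11 to 1.75% in the other 4 iPS clones. The CpG-poor promoters were touched in part. At those that met both criteria run A had 9.62 to 12.1% and the other clones 10.9 to 13.7%, which overlap. At those poor by the CpG ratio alone run A had 16.7 to 20.3% against 9.19 to 12.4%. At those poor by GC content alone run A had 6.83 to 10.2% against 4.64 to 5.31%. No run held Aid+/+ iPS clones together with MEFs or ES lines, so in the comparisons with these clones the run and the cell type cannot be told apart. Within run C, Aid-/- iPS replicate 3 had a peak at 1377 CpG-poor promoters (1.62% of its autosomal peaks) and MEF replicate 1 at 959 (2.12%). No pair of samples within a group shared more than 1 identical autosomal peak.

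CpG-poor promoters carried a peak more often than CpG-rich promoters in each sample. On average 9.76% ± 3.30 (SD, n = 14) of CpG-poor and 3.86% ± 3.00 of CpG-rich promoters had a peak, and the first share was higher in 14 of 14 samples (exact paired permutation test by sign changes, two-sided, p = 0.000122, the smallest that 14 samples allow; adjusted over 5 tests by the Benjamini-Hochberg (BH) method, 0.000305). The gap was narrowest in Aid-/- iPS replicate 4, at 11.6% and 10.8%, and widest in Aid+/+ iPS replicate 4, at 12.5% and 1.75%. The strength of peaks at CpG-poor promoters relative to other peaks depended on how the promoter was defined. Their median fold enrichment over the local background was 15.3 ± 1.77, against 14.8 ± 1.503 for all other autosomal peaks (higher in 10 of 14 samples, exact paired permutation test, p = 0.0486, BH-adjusted 0.081). The difference of 0.511 became 1.27 with summits within 500 bp (exact p = 0.00146), 1.29 with both composition criteria (exact p = 0.000488), 1.11 with peaks of a p of at most 1e-10 and 1.18 with equal numbers of peaks (exact p = 0.000244 in both). With any overlap of peak and promoter it was 0.168 (exact p = 0.513), and without olfactory and vomeronasal receptor genes 0.327 (exact p = 0.21). These p-values were not adjusted. Their median length of 653 ± 66.1 bp and that of other peaks, 643 ± 75.9 bp, did not pass the same exact test (p = 0.113), nor did the −10log10 p of the peaks, 174 ± 39.7 and 183 ± 36.1 (exact p = 0.201).

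**Figure D1:**
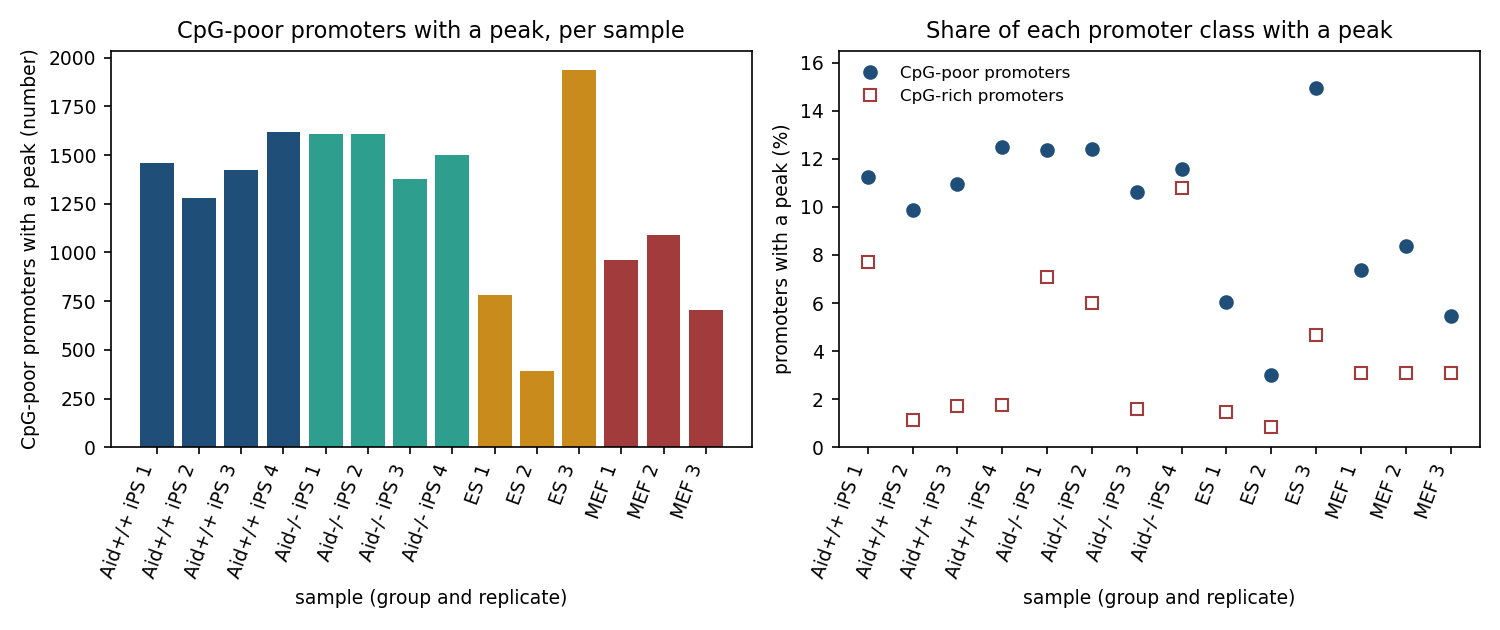
Number of CpG-poor promoters with a peak in each of the 14 samples (left, bars coloured by group), and the share of CpG-poor (filled circles) and CpG-rich promoters (open squares) with a peak in per cent (right). The share of CpG-poor promoters lies above that of CpG-rich promoters in 14 of 14 samples, and ES lines range from 390 to 1939 promoters.

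Within the CpG-poor class, the chance of a peak followed the number of CpGs. In Aid+/+ iPS cells a peak was found at 0.732% ± 0.155 (SD, n = 4) of promoters with 0 to 4 CpGs in the 1 kb, at 8.88% ± 1.82 of those with 10 to 14, at 31.4% ± 3.49 of those with 20 to 24 and at 4.94% ± 2.70 of those with 40 to 86. In every group the means of the first and the last of these bins lay below that at 20 to 24 CpGs. MEFs lay below all Aid+/+ iPS clones, without overlap, in each bin up to 24 CpGs: at 10 to 14 CpGs the MEFs ranged from 2.13 to 4.41% and the clones from 6.92 to 11.3%. At 30 to 39 CpGs the ranges, 15.4 to 18.3% and 13.9 to 19.9%, overlapped. That difference between bins was not tested. MEFs had 33500 to 54953 autosomal peaks and the Aid+/+ clones 74815 to 106408. With equal numbers of peaks MEFs had on average 128.5 more CpG-poor promoters with a peak, and the bins were not recomputed at that setting. The 300 bp around a summit held a median of 15 ± 1 CpGs in MEF peaks at CpG-poor promoters and 12 ± 0.816 in those of Aid+/+ iPS clones, beside 14 ± 1 and 11 ± 0.816 in all other peaks of the same samples.

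**Figure D2:**
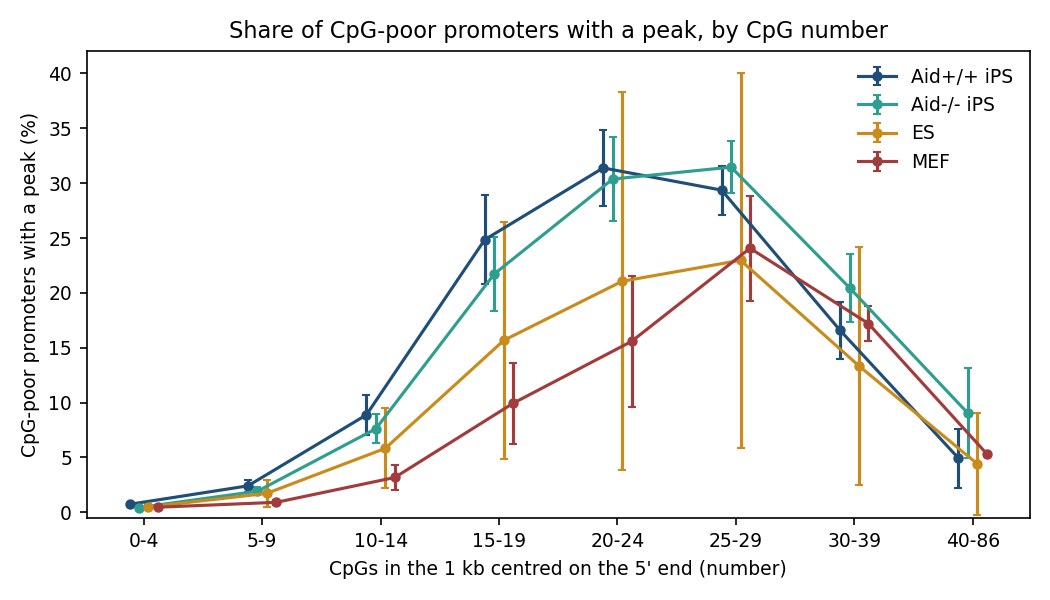
Share of CpG-poor promoters with a peak (per cent, mean and SD over the samples of a group) by the number of CpGs in the 1 kb centred on the 5' end. The highest bin is 20 to 24 CpGs in Aid+/+ iPS cells and 25 to 29 CpGs in the other groups. MEFs lie below Aid+/+ iPS cells at 10 to 14 CpGs (3.18 against 8.88%), with the number of peaks not made equal between samples.

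The 9980 CpG-poor promoters without a peak in any sample had a median of 13 CpGs in the 1 kb, the 2816 with a peak in 1 to 13 samples 24, and the 183 with a peak in all 14 samples 26, beside 77 in CpG-rich promoters. The letters TATAAA, searched on the gene's strand in the 50 bases before the 5' end, were found at 4.81%, 3.55% and 2.73% of these 3 classes, at 1.01% of CpG-rich promoters and at 3.13% of all 21418. At the limits of the rule the change was gradual. Among promoters with a GC content of at least 55%, 30.9% of the 579 with a CpG ratio of 0.55 to 0.6 and 27.7% of the 752 with a ratio of 0.6 to 0.65 had a peak in at least 1 sample. Among promoters with a ratio of at least 0.6, the shares were 15.7% of 694 at a GC content of 53 to 55% and 14.8% of 861 at 55 to 57%. Just inside the limit of distance, 2177 summits lay 800 to 1000 bp from the nearest CpG-poor 5' end, and 2022 lay in the next 200 bp beyond it.

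The summits lay downstream of the 5' end more often than upstream. On average 25.03% ± 1.37 (SD, n = 14) lay upstream, from 21.4% to 27.0%, below 50% in 14 of 14 samples (p = 0.000122 by the exact sign-change permutation, again the lowest reachable, and 0.000305 after BH adjustment). The 200 bp just downstream of the 5' end held 28.5% ± 2.25 of the summits and the 200 bp just upstream 9.11% ± 0.973. The CpGs themselves were unevenly placed: CpG-poor promoters with a peak had a median of 15 CpGs in the 1 kb upstream and 25 in the 1 kb downstream, and 37.4% of their CpGs within 1 kb lay upstream, a larger share than that of the summits. At CpG-rich promoters 32.1% ± 7.72 of the summits lay upstream. By the annotation, 53.1% of the summits lay in a coding exon, 12.5% in a UTR, 13.6% in an intron and 19.4% outside genes.

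**Figure D3:**
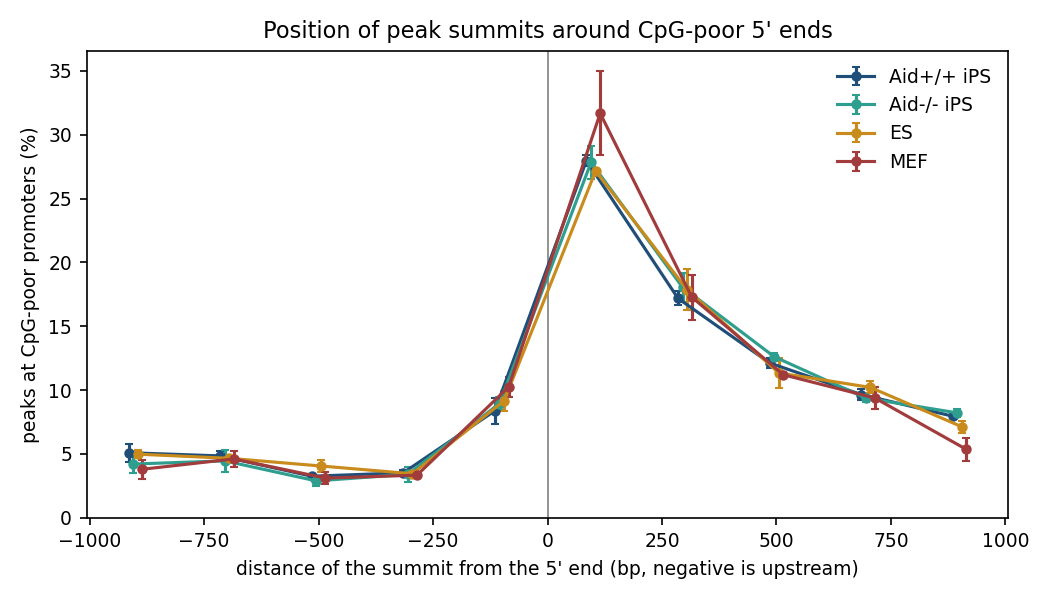
Position of peak summits around the 5' ends of CpG-poor promoters, as the per cent of a sample's peaks in bins of 200 bp (mean and SD over the samples of a group). In all 4 groups the bin from 0 to 200 bp downstream is the highest, with 27.2 to 31.7% of the summits.

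The 183 promoters with a peak in all 14 samples included 103 of genes with provisional symbols and 6 of olfactory receptors. Among the other genes, the 6 whose weakest peak was strongest were Calml3, Gramd1c, Jph2, Rcvrn, Rpl27-ps3 and Zfp180. At Rcvrn (chromosome 11, 5' end at 67508828, plus strand) the fold enrichment was 38.4, 33.8, 33.2 and 32.8 in the Aid+/+ iPS clones, 42.3, 35.1, 32.0 and 35.1 in the Aid-/- clones, 35.7, 39.1 and 33.4 in the ES lines and 39.8, 35.4 and 33.9 in the MEFs, with 147 to 492 tags. The groups overlapped throughout. At Jph2, the gene of a junctional protein of heart muscle, it ran from 27.9 to 38.9, and at Gramd1c from 23.9 to 46.0, with its lowest value in MEF replicate 3. At Calml3 (chromosome 13, 3803564, minus strand) it ran from 26.2 in ES replicate 2 to 44.2 in Aid-/- iPS replicate 2. Zfp180, a zinc finger gene, had 32.8 to 39.2 in the 11 pluripotent samples and 25.1 to 29.5 in the MEFs.

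To ask whether loss of Aid changed methylation at these promoters, Aid-/- and Aid+/+ iPS clones were compared. A peak was present at 1457, 1282, 1422 and 1619 CpG-poor promoters in the Aid+/+ clones and at 1606, 1610, 1377 and 1503 in the Aid-/- clones. The ranges overlapped, and the difference of 79 promoters (1524 ± 110 against 1445 ± 138, SD, n = 4 each) gave p = 0.457 in an exact permutation test, two-sided (0.588 after BH adjustment over 9 tests). With both composition criteria required the difference was −45.25, and with peaks of a p of at most 1e-10 it was −26.25; with equal numbers of peaks it was 11.25 (exact p = 0.486). The share of autosomal peaks that lay at CpG-poor promoters was 1.93% ± 0.279 in Aid-/- and 1.66% ± 0.225 in Aid+/+ clones (exact p = 0.286), and with equal numbers of peaks the difference was 0.0403 (exact p = 0.457). Within run A the values were 2.03% over 3 Aid-/- clones and 1.99% in the Aid+/+ clone. The median fold enrichment was 16.0 ± 1.78 and 16.4 ± 1.22 (exact p = 0.743). Within the experiment that gave both genotypes, an alternative added after seeing the data, the shares were 1.53 and 1.55% in the Aid+/+ clones and 1.90 and 1.90% in the Aid-/- clones, without overlap. With 2 clones against 2 the smallest exact p is 0.333. The number of promoters differed there by 87.5 and the median fold enrichment by 0.503. The Aid+/+ clones of that experiment are in run B and the Aid-/- clones in run A, so genotype and run cannot be told apart within it. A pair of clones of a genotype shared 51.6 to 75.7% of the CpG-poor promoters with a peak in either.

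Few promoters separated the genotypes completely. Of 2573 CpG-poor promoters with a peak in any iPS clone, 793 had a peak in all 8 clones. Only 2 had one in all Aid+/+ and no Aid-/- clone (0.0518% of all 3858 promoters with a peak, CpG-rich included, showed this pattern) and 1 had the reverse (background 0.0518%). These were Slamf6 and Gm7092, and Hist3h2ba, a histone H2B gene. At Slamf6 (chromosome 1, 173847646, plus strand) the fold enrichment was 8.49, 13.4, 13.96 and 13.98 in the Aid+/+ clones on 15 to 25 tags. ES replicate 3 also had a peak, of 9.05. At Gm7092, which holds a provisional symbol and is named because the count is small, it was 12.4, 16.55, 10.9 and 9.16, with 12.1 in ES replicate 3. At Hist3h2ba (chromosome 11, 58762413) it was 9.86, 9.83, 9.60 and 9.51 in the Aid-/- clones on 11 to 38 tags, with no peak in the other 10 samples. Its window had a CpG ratio of 0.706 and 47 CpGs, and it was CpG-poor by GC content alone. In the iPS clones these peaks were all weaker than the median peak at a CpG-poor promoter in the same sample, which lay between 13.45 and 17.5. Without Aid+/+ replicate 1 the counts were 13 and 9, and without Aid-/- replicate 3 they were 8 and 23. By this rule a count can only stay or rise when a clone is left out. Leaving out a clone loosens the rule for every promoter, CpG-rich ones included, and no share over all promoters is given for these 4 counts. Within the experiment of both genotypes, with 2 clones each, they were 91 and 119 (3.33% and 10.3% of all promoters with a peak there). Between the 4 iPS clones of run A and the other 4, which differ in genotype only in part, the same rule gave 39 and 13 CpG-poor promoters, beside 103 and 1 CpG-rich ones (3.68% and 0.363% of all 3858).

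Tags were compared in 782 regions of CpG-poor promoters that held a peak of all 8 iPS clones, fitted with all 48078 such autosomal regions. With edgeR's quasi-likelihood test 0 of the 782 were higher and 0 lower in Aid-/- clones at a BH-adjusted p under 0.05 (background 0% higher and 0.00208% lower). At an unadjusted p under 0.05 there were 44 (5.63%, against 3.61% of all regions). DESeq2 called 0 of the 718 member regions to which it gave an adjusted p, beside 4 higher and 20 lower among 42485 regions. Without Aid+/+ iPS replicate 1 edgeR called 1 member region higher (0.128%, against 0.0374% of all regions) and 0 lower (against 0.0208%). With the experiment as a covariate, where the genotype is estimated from 1 experiment, edgeR called 0 of the 782 and 0 of all 48078. The median log2 difference was 0.02 in these regions and close to 0 in all.

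MEFs were compared with Aid+/+ iPS cells, as the cell type from which the clones were made. A peak was present at 959, 1088 and 707 CpG-poor promoters in MEFs, below every Aid+/+ iPS clone. The difference of −527 promoters (918 ± 194, n = 3, against 1445 ± 138, n = 4) had the smallest p that 3 against 4 samples allow in an exact permutation test, 0.0286 (BH-adjusted 0.257). MEFs had 33500 to 54953 autosomal peaks and the clones 74815 to 106408. When the 31650 most significant peaks of each sample were taken, which changes their number and their stringency together, MEFs had on average 128.5 promoters more (exact p = 0.0286), and with peaks of a p of at most 1e-10 they had fewer, by −412 (exact p = 0.0286). The share of peaks at CpG-poor promoters was 2.12, 1.97 and 2.07% in MEFs and 1.99, 1.55, 1.53 and 1.55% in the clones (difference 0.397, exact p = 0.0857, BH-adjusted 0.257), and the Aid+/+ clone within the range of the MEFs was the one of run A. The median fold enrichment was 13.98 ± 0.991 and 16.4 ± 1.22, without overlap between the groups (exact p = 0.0571, BH-adjusted 0.257). All other autosomal peaks of the same samples differed likewise. They had 13.1 ± 1.24 (12.32 to 14.55) in MEFs and 15.6 ± 0.638 (14.65 to 15.96) in the clones, also without overlap.

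Of 2306 CpG-poor promoters with a peak in MEFs or Aid+/+ iPS clones, 224 had one in all 4 clones and no MEF (9.71%; 7.28% of all 3201 promoters with a peak showed this pattern), and 64 had one in all 3 MEFs and no clone (2.78%; background 4.09%). CpG-rich promoters gave 9 and 67 of 895. With the 31650 most significant peaks of each sample the counts at CpG-poor promoters were 50 and 143, in the opposite order. No share over all promoters is given at that setting, so whether this order is particular to CpG-poor promoters was not examined. Genes with provisional symbols or of chemosensory receptors made up 76 of the 224 and 16 of the 64.

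Among the promoters marked in the clones and not in MEFs, those with the strongest weakest peak were Kcnh6, Cd93, Mrgpra6, Fap, Nmur2 and Klrg1. The median summit lay 971 and 991 bp downstream of the 5' end at Kcnh6 and Cd93, near the 1000 bp limit. A summit beyond that limit in another sample was not counted. At the others the median summit lay 116 to 544 bp downstream. Fap, the fibroblast activation protein, a protease of activated fibroblasts, had 29.4, 28.4, 31.5 and 30.3 in the Aid+/+ clones, 23.8 to 33.8 in the Aid-/- clones and no peak in the 3 MEFs or in ES replicate 2. Mrgpra6 (chromosome 7, 54444786, minus strand) had 34.7, 34.6, 36.8 and 29.2 in the Aid+/+ clones, 31.8, 28.3, 38.3 and 20.8 in the Aid-/- clones and 33.6, 8.74 and 35.2 in the ES lines. Cd93, a membrane protein of endothelial and myeloid cells, and Klrg1, a receptor of lymphocytes, had at least 29.6 and 25.2 in Aid+/+ clones. Kcnh6, a potassium channel, and Nmur2, a neuromedin receptor, ranged there from 29.8 to 38.3 and from 26.8 to 36.2.

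Among those marked in MEFs and in no Aid+/+ iPS clone, the leading 6 were Eng, Tex14, Dnd1, Nsd1, Dmrtb1 and Zzz3. The median summit lay 825.5 bp downstream of the 5' end at Dnd1, 640 bp downstream at Dmrtb1 and at −795 bp, upstream, at Zzz3. At the others it lay 4.5 to 343 bp downstream. Tex14, Dnd1 and Dmrtb1 are genes of germ cells. Tex14 (chromosome 11, 87218567, plus strand) had 32.6, 27.0 and 28.4 in the MEFs on 121 to 155 tags, and its peaks in Aid-/- iPS replicates 1 and 2, of 11.3 and 9.63, held 12 and 13 tags, while ES replicate 3 had 18.2 on 46 tags. Dmrtb1 had 24.4, 19.7 and 26.0, and Dnd1 21.2, 21.3 and 24.6, in the MEFs. Both also had weaker peaks in ES replicates 1 and 3 and in Aid-/- iPS replicate 4, and Dmrtb1 in Aid-/- iPS replicate 1. Eng, the gene of endoglin, had 22.5, 28.9 and 26.8 in MEFs and 11.5 in ES replicate 3. Nsd1, a histone methyltransferase gene, had 19.9 to 24.1 in MEFs and a peak of 9.23 in 1 Aid-/- clone.

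A stricter contrast set all 11 pluripotent samples against the 3 MEFs. A peak in all 11 and in no MEF was found at 17 of the 2999 CpG-poor promoters with a peak in at least 1 sample. Of the 1506 such CpG-rich promoters 0 showed this pattern. Of the 17, 10 have established gene names: Chrm5, Gml, Hemt1, Hsd17b2, Mrgpra6, Pde6c, Slc22a13, Slc7a15, Sohlh1 and Uts2. At Slc22a13 the median summit lay at −852 bp, upstream of the 5' end. Gml and Hemt1 are neighbours on opposite strands and shared 1 peak. These promoters were singled out after their values were seen. Sohlh1 (chromosome 2, 25702768, minus strand) had 33.1, 31.4, 30.55 and 23.02 in Aid+/+ iPS clones, 28.6, 29.4, 25.04 and 24.6 in Aid-/- clones and 14.95, 16.7 and 27.3 in ES lines, on 26 to 179 tags. At Chrm5, a muscarinic acetylcholine receptor, the values ran from 9.46 to 29.0, and at Uts2, the gene of the peptide urotensin, from 9.46 to 29.99, in both cases lowest in ES replicate 2. Pde6c had 6.55 in ES replicate 2 and 10.55 to 22.2 in the other 10.

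In the other direction 12 of the 2999 CpG-poor and 14 of the 1506 CpG-rich promoters with a peak in at least 1 sample had one in the 3 MEFs alone. The 8 with established names were Comp, Ebf2, Epb4.9, Gtf2a1l, Hoxa2, Mkrn3, Rtkn and Slc44a2, again singled out after their values were seen. Comp, a cartilage matrix protein, had 11.2, 12.9 and 8.33, Hoxa2, a homeobox gene of hindbrain and neural crest, 7.99, 5.24 and 9 on 72 to 142 tags, and Ebf2, a transcription factor of mesenchymal cells, 7.95, 7.67 and 5.58. Epb4.9, encoding a cytoskeletal protein, was the strongest, with a mean of 20.8. Its summits lay at a median of −945 bp, upstream of the 5' end, and those of Ebf2 at −729 bp. Gtf2a1l (chromosome 17, 89068000, plus strand) had 19.8, 17.2 and 12.5, and Mkrn3 (chromosome 7, 69565039, minus strand) had 11.8, 10.3 and 11.04 on 25 to 35 tags.

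**Figure D4:**
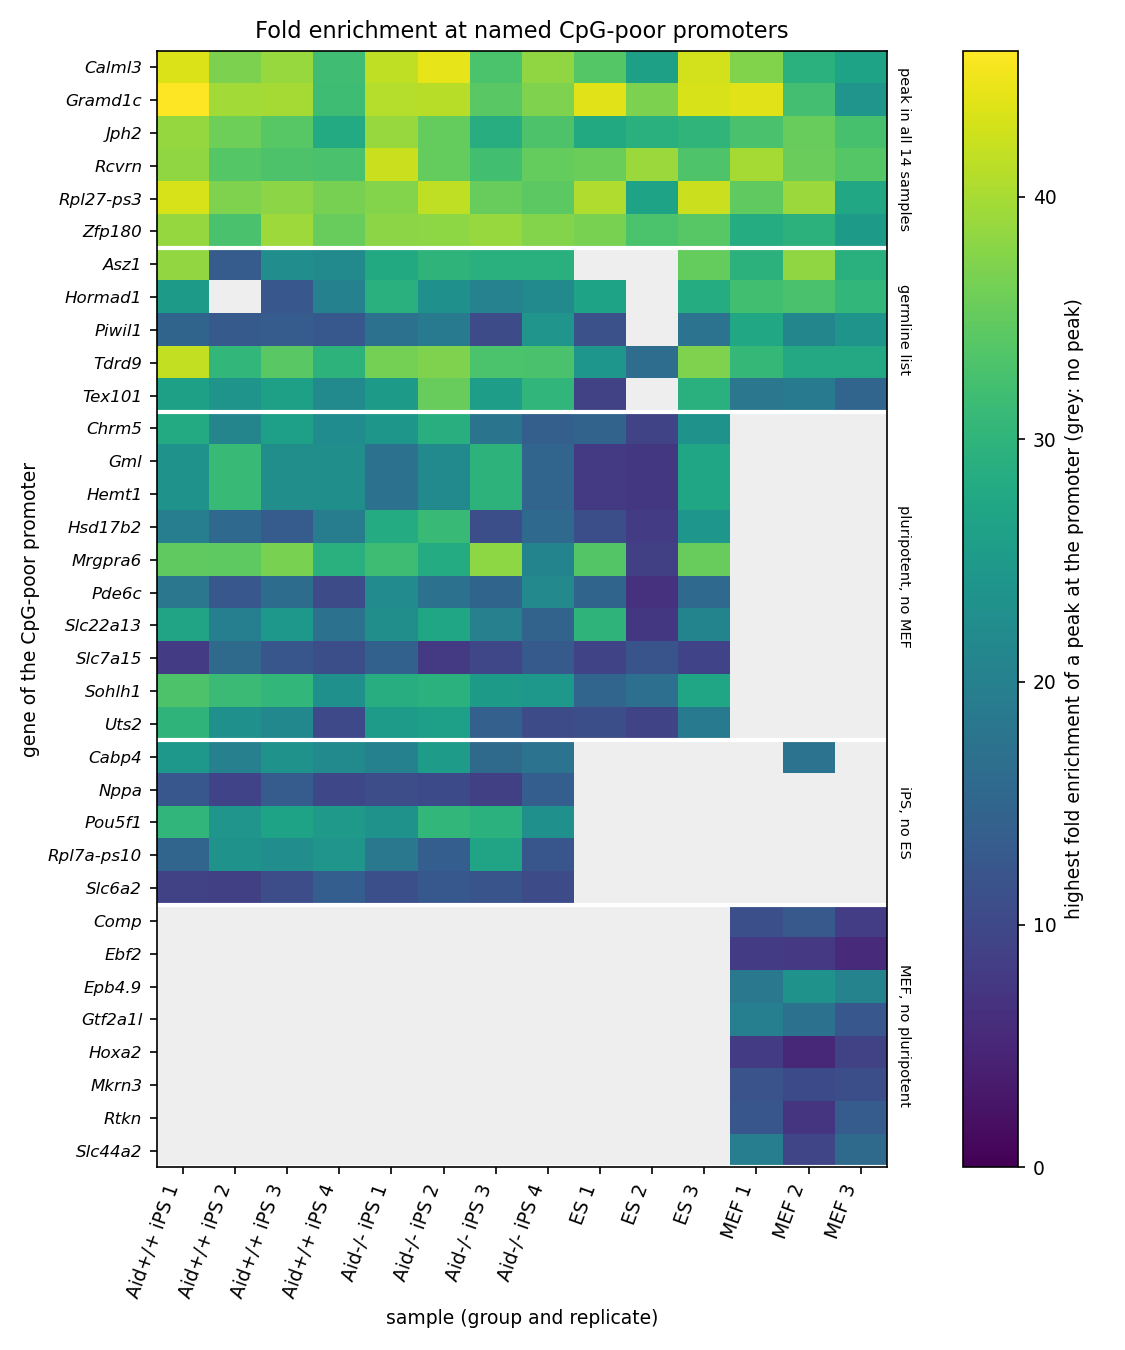
Highest fold enrichment of a peak at each named CpG-poor promoter (rows, grouped by the pattern at the right) in each of the 14 samples (columns), with grey where the sample had no peak. The promoters in the first block have a peak in every sample, those of the pluripotent block are grey in the 3 MEFs, and those of the last block have peaks of 5.24 to 23.4 in the MEFs alone.

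The tags of promoters with a peak in both cell types were compared in 394 regions, fitted with 21945 regions that held a peak of all 4 Aid+/+ iPS clones and all 3 MEFs. With edgeR and trimmed-mean scaling (TMM) 164 of the 394 (41.6%) were higher in MEFs, against 23.7% of all regions, and 48 (12.2%) were lower, against 19.9%. The median log2 difference was 0.35 in these regions and −0.05 in all regions. The balance moved with the scaling. With the total tags of each library as its size, which shifted the median of all regions to −0.50, 72 were higher (18.3%, against 9.35% of all regions) and 61 lower (15.5%, against 22.7%). With peak length as an offset 128 were higher (32.5%, against 19.3%) and 29 lower (7.36%, against 9.13%). With limma on log2 fold enrichment, where the median of all was −0.27, 25 were higher (6.35%, against 5.15%) and 99 lower (25.1%, against 26.8%). Relative to the median of all regions the members' median was higher by each of these measures, −0.12 against −0.50, 0.36 against 0.02 and −0.20 against −0.27. A promoter that lost its peak in any sample was outside this test.

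**Figure D5:**
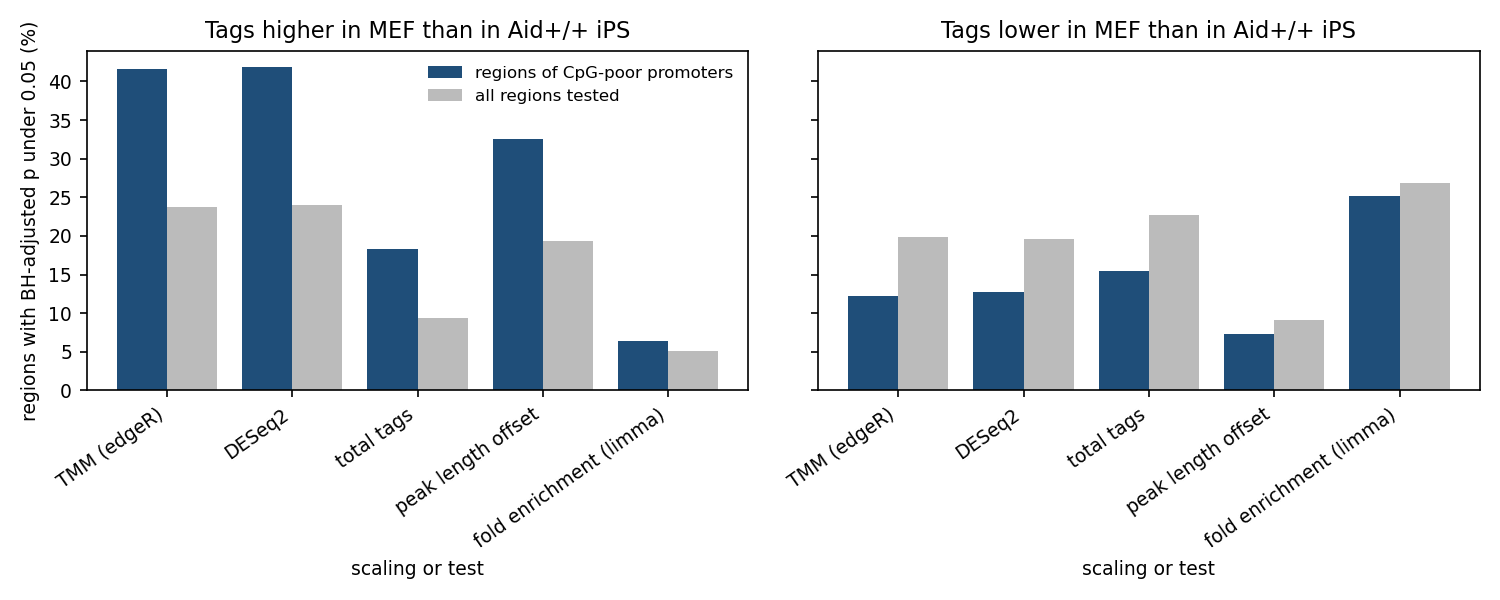
Per cent of regions with more tags (left) or fewer tags (right) in MEFs than in Aid+/+ iPS cells at a BH-adjusted p under 0.05, for the 394 regions of CpG-poor promoters (dark bars) and all 21945 regions tested (grey bars), by scaling or test. With TMM 41.6% of the member regions are higher and 12.2% lower, and with fold enrichment 6.35% and 25.1%.

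The member regions with the smallest adjusted p that were higher in MEFs lay at Rpl10l, Wdr20b, Spesp1, Ptgir and Omp. Rpl10l, a testis copy of a ribosomal protein gene, had 71, 24, 64 and 44 tags in the Aid+/+ clones and 890, 736 and 885 in the MEFs (log2 difference 4.78, SE 0.28, edgeR's BH-adjusted p = 6.6e-08). Its fold enrichment differed by 0.35 on the log2 scale in the limma fit. Spesp1, a sperm acrosome protein, had 95, 28, 37 and 40 tags against 300, 258 and 281 (log2 difference 3.23, SE 0.29). Wdr20b had a difference of 1.99, Ptgir, the prostacyclin receptor, of 2.60, and Omp, the olfactory marker protein, of 2.32. Those lower in MEFs lay at Catsper1, Cldn8, Uts2r, Mier2 and Dnajb8. Catsper1, a sperm calcium channel, had 128, 168, 177 and 153 tags in the clones and 49, 42 and 21 in the MEFs (log2 difference −1.46, SE 0.27, edgeR's BH-adjusted p = 0.00107). Cldn8, a tight junction protein, had a difference of −1.03, Uts2r, the urotensin receptor, of −0.88, Mier2 of −1.49 and Dnajb8, a testis chaperone, of −1.16. With limma on log2 fold enrichment 4 of these 10 passed the threshold: Wdr20b of the higher ones, and Catsper1, Cldn8 and Dnajb8 of the lower. Ptgir, Omp and Spesp1 differed there by 0.02, 0.38 and 0.44. With peak length as offset 8 passed, all but Uts2r and Mier2, and Mier2 then differed by −0.05.

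ES lines varied more among themselves than the other groups. A peak was present at 783, 390 and 1939 CpG-poor promoters, in the order RF8, MG1.19 and B6 ES, and a pair of lines shared 16.51 to 36.2% of the promoters with a peak in either, against 52.6 to 71.3% in MEFs. The mean of 1037 ± 805 differed from that of Aid+/+ iPS cells by −408 (exact permutation test, p = 0.343, BH-adjusted 0.514). The share of peaks at CpG-poor promoters was 1.53% ± 0.369 and 1.66% ± 0.225 (exact p = 0.543), and the median fold enrichment 14.2 ± 2.07 and 16.4 ± 1.22 (exact p = 0.143). All other autosomal peaks had a median of 13.9 ± 1.38 in ES lines and 15.6 ± 0.638 in the Aid+/+ clones. Of 2540 promoters with a peak in either group, 19 had one in all 4 Aid+/+ iPS clones and no ES line (0.748%; background 0.577%) and 2 the reverse (background 0.0577%). Without ES replicate 3 the first count was 345, under a rule that is then looser for every promoter, and no share over all promoters is given for it. The 2 were Guca1b, a guanylate cyclase activator of photoreceptors, with 24.2, 9.46 and 12.2 in the ES lines and 8.80 in MEF replicate 2, and H2-T3, a class I histocompatibility gene, which had peaks in 2 Aid-/- clones as well.

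The leading promoters with a peak in Aid+/+ iPS cells and not in ES lines were Pou5f1, Cabp4, Rpl7a-ps10, Erv3, Ccl19 and Nppa. The median summit of Cabp4 lay 983 bp downstream of the 5' end, near the limit of distance. Pou5f1 (chromosome 17, 35642982, plus strand) had a fold enrichment of 30.3, 24.0, 26.8 and 24.9 in Aid+/+ iPS clones and of 23.55, 30.5, 29.4 and 23.01 in Aid-/- clones, and no peak in the ES lines or MEFs. Its summits lay 236 to 264 bp downstream of the 5' end, in a coding exon. By another method, the study itself reported low methylation of the Oct3/4 promoter in iPS clones of both genotypes. Coding exons of all 4 reprogramming genes held a summit in 8 of 8 iPS clones. In ES lines this was so in 0 of 3 at Pou5f1, 0 of 3 at Sox2, 1 of 3 at Klf4 and 2 of 3 at Myc, and in MEFs in 0, 0, 0 and 3 of 3. Tags from the endogenous exon and from the integrated cDNA cannot be told apart in these lists. The other 3 CpG-poor promoters with a peak in all 8 iPS clones and in neither ES lines nor MEFs were Nppa, the gene of the atrial natriuretic peptide, with 8.69 to 13.8, Slc6a2, the noradrenaline transporter, with 8.67 to 13.7, and Rpl7a-ps10. The pattern was found at 4 of 2999 CpG-poor and 0 of 1506 CpG-rich promoters with a peak in at least 1 sample. Ccl19, a chemokine, had 9.79, 20.5, 10.1 and 19.2 in the Aid+/+ clones.

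In the tag test, 274 regions of CpG-poor promoters held a peak of all Aid+/+ iPS clones and ES lines. With edgeR 0 were higher and 0 lower in ES lines at a BH-adjusted p under 0.05 (background 0.0133% and 0.00442%), and 25 had an unadjusted p under 0.05 (9.12%, against 10.1% of all regions). DESeq2 called 0 of 273 member regions, beside 206 higher and 102 lower among 22631. Without ES replicate 3, edgeR gave 8 higher (2.92%, against 3.49% of all regions) and 39 lower (14.2%, against 6.6%). The median log2 difference was −0.15 in these regions and −0.03 in all.

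Genes known for one tissue were then described by list, beside 23.1% of all CpG-poor promoters with a peak in at least 1 sample. The lists were chosen with earlier results of these data known and carry no test. Germline genes were marked most often: 14 of 19 CpG-poor promoters (73.7%) had a peak in at least 1 sample, and a sample of Aid+/+ iPS, Aid-/- iPS, ES and MEF cells had a peak at 48.7, 55.3, 35.1 and 54.4% of the 19 on average. Tdrd9, a helicase that silences transposons in germ cells, had a peak in all 14 samples, with 29.8 to 41.7 in Aid+/+ iPS clones and 27.8 to 30.6 in MEFs. Tex101 had 22.1 to 26.1 in Aid+/+ iPS clones and 15.05 to 19.02 in MEFs. Piwil1, a small RNA binding protein, had 12.75 to 14.8 in Aid+/+ iPS clones and 21.1 to 27.4 in MEFs, without overlap. The Aid-/- clones had 10.5 to 23.9 there, which overlaps the MEFs. Hormad1, a meiotic chromosome protein, had 12.4 to 25.1 in 3 of the 4 Aid+/+ clones and 30.55 to 32.8 in MEFs. Asz1, another gene of transposon silencing, had 13.4 to 38.6 and 29.2 to 38.3. The germline promoters of the list had a median of 27 CpGs in the 1 kb, against 16 in all CpG-poor promoters.

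Crystallin genes, of the lens, had a peak at 12 of 17 promoters (70.6%). Crygd had 28.0 to 40.6 in the Aid+/+ clones and 13.6 and 8.21 in 2 MEFs, its summits lying at a median of −874 bp, upstream of the 5' end, and Cryaa had 7.86 to 10.4 in the Aid+/+ clones and 9.06 and 9.17 in 2 MEFs. Muscle genes had a peak at 10 of 30 (33.3%). Myf5, a myogenic transcription factor, had 19.2 to 30.9 in the Aid+/+ clones and 11.15 and 8.10 in 2 MEFs, and Tnni3, a cardiac troponin, 13.9 to 25.2 and 7.89 to 14.4. Keratin and epidermal genes had a peak at 43 of 147 (29.3%), led by Krt23 with 27.6 to 35.7 in the Aid+/+ clones and 8.59 to 12.96 in MEFs, while Krt82 had 12.95 to 29.0 and 22.2 to 24.9. Blood cell genes had a peak at 9 of 35 (25.7%), among them Cd8a, a T cell co-receptor, with 13.7 to 22.3 in the Aid+/+ clones. Fcer1g, an Fc receptor chain, had 8.65 to 12.6 there.

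Fewer promoters were marked in the remaining tissue lists. Liver and plasma protein genes had a peak at 6 of 31 (19.4%), and the tyrosine aminotransferase gene Tat had peaks of 4.91 to 9.91 in 6 samples. Defensins had a peak at 8 of 53 (15.1%), with Defb36 at 16.2 to 30.8 in the Aid+/+ clones and 24.3 to 28.3 in MEFs. Kallikreins had one at 2 of 28 (7.14%), placental hormone and glycoprotein genes at 2 of 54 (3.70%), olfactory receptors at 94 of 1106 (8.50%) and vomeronasal receptors at 4 of 326 (1.23%). The last 4 lists had medians of 3 to 6 CpGs in the 1 kb. Olfactory receptors nevertheless included promoters marked in all 14 samples, such as Olfr691, whose window held 6 CpGs and whose summits lay a median of 661 bp downstream of the 5' end, with a mean fold enrichment of 36.3 in Aid+/+ iPS clones and 32.1 in MEFs. Vmn2r69, with 3 CpGs in its window, had 38.7 to 44.99 in the Aid+/+ clones and 9.60 to 21.7 in MEFs, its summits lying at a median of −956.5 bp.

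Genes of the fibroblast and matrix list had a peak at 2 of 33 CpG-poor promoters (6.06%), and no MEF had one. Col1a1, the main collagen of connective tissue, had 28.0, 11.8, 14.7 and 20.1 in Aid+/+ iPS clones, 26.5, 29.99, 21.4 and 17.7 in Aid-/- clones and 29.2 in ES replicate 3. Its promoter was thus marked in 9 samples, all of them pluripotent. Fbn1, of the elastic microfibrils, had a peak in 3 samples, 1 each of Aid+/+ iPS, Aid-/- iPS and ES cells.

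Pluripotency genes had a peak at 8 of 19 CpG-poor promoters (42.1%), most of them in few samples. Nanog had none in the 8 iPS clones and 3 ES lines, and peaks of 7.93 and 7.18 on 37 and 50 tags in MEF replicates 1 and 2. Tcfcp2l1 had peaks of 7.18, 6.92 and 11.6 in the 3 Aid-/- clones of run A and in no other sample. Tcl1 had 7.22 and 13.6 in MEF replicates 1 and 2, 11.1 in 1 Aid+/+ clone and 13.5 in ES replicate 3, and Tdh and Sall4 each had a peak in 1 Aid+/+ and 1 Aid-/- clone of run A. The promoters of Dppa3, Zfp42 and Khdc3 (2410004A20Rik in the annotation) had no peak in any sample, which does not show that they are unmethylated. The window of Khdc3 held 8 CpGs. Peaks farther into these genes existed: at Dppa3, 2260 to 2301 bp downstream of the 5' end, 5 of 8 iPS clones had 8.53 to 14.99, ES replicate 3 had 22.9 and the 3 MEFs 22.5, 21.8 and 18.3, and at Zfp42, at 1088 to 1243 bp and so just outside the rule, the 3 MEFs alone had a peak. At Khdc3 the nearest summits lay 1095 to 1407 bp downstream, in 3 iPS clones and ES replicate 3.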

How the data were processed

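MBD-seq was analysed from 14 peak lists, 1 per sample, with no samples pooled. The submitters' processing notes name CASAVA 1.8.1, BWA 0.5.9rc1 and MACS 1.4.0rc2 or 1.4.1. Per the file headers, MACS ran without a control sample at a p cutoff of 1e-05, kept at most 2 duplicate tags and used a local background of up to 10000 bp. For each peak the authors deposited the tag count and the fold enrichment, a ratio to that background. They also deposited MACS's significance, 10 times the −log10 p, which the authors' peak caller computed per peak. Depth is given as total and filtered tags; DNA outside called peaks was not analysed here, so a missing peak is no measured value.

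Summits were matched to GENCODE vM1 5' ends on NCBI build 37. The values were compared over samples by exact permutation tests, two-sided, with Benjamini-Hochberg adjustment. Overlapping peaks were merged, and the tag counts of regions with peaks from all compared samples were fitted with edgeR 4.0.16 (quasi-likelihood, TMM) in R 4.3.3, with DESeq2 1.42.0 and limma 3.58.1 as alternatives. The procedures were tested on simulated data. Peak summits and figures were handled with Python 3.11.15.

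Named were the 6 promoters of all 14 samples with the strongest weakest peak, up to 6 per presence pattern ranked likewise, up to 5 regions per tag comparison and direction by adjusted p, up to 5 genes per list by number of samples, and Nanog, Pou5f1, Dppa3, Zfp42 and Khdc3. A further gene of this set is not reported here. Provisional symbols and chemosensory receptors were counted but not named, except in the lists and where a count was small. Members and lists were chosen with earlier results of these data known. Alternatives varied the summit distance, the composition criteria, the peak cutoff and number, the scaling, and the samples included. Leaving out olfactory and vomeronasal receptor genes from the presence patterns, and comparing the genotypes within the experiment of both or with the experiment as a covariate, were added after seeing the data.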

Additional observations from a re-analysis of the deposited data

Results flagged for a closer look

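Aid+/+ iPS replicate 1 stood apart from the other 3 clones of its group in 2 of 16 values examined, by Dixon's criterion at the 95% level. The share of its autosomal peaks at CpG-poor promoters was 1.99%, against 1.53 to 1.55% in the other clones. It had a peak at 7.73% of CpG-rich promoters, against 1.11 to 1.75%. It is also the only Aid+/+ iPS clone of run A, whose 3 Aid-/- clones had 1.90, 1.90 and 2.30% and 7.07, 6.02 and 10.8%. Chance passes about 1 in 20 groups, or 0.8 of 16.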

How the results depend on the processing

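No paired analysis was possible because the replicate numbers of the groups only name samples and the 1 experiment with both genotypes does not pair its clones. Besides leaving out samples, 164 recomputed values stayed the same: tested values kept their direction and side of the threshold, and counts stayed within a fixed ratio of the main count. A further 24 values without a test moved, 10 reversed, 10 lost and 4 gained the threshold. The regions named in the tag comparison of MEFs are among these values. On leaving out samples 178 values stayed the same, 26 moved, 2 reversed, 17 lost and 1 gained the threshold. For Aid-/- against Aid+/+ iPS, the difference in number was −45.25 with both composition criteria and −26.25 at a peak p of at most 1e-10, and with equal numbers of peaks 11.25. The difference in share was 0.0371 within run A and 0.0403 with equal numbers, and that in fold enrichment 0.118 at a p of at most 1e-10, 0.0383 within run A and 0.503 within the experiment of both genotypes. For MEFs, equal numbers of peaks gave 128.5 promoters, 0.387 in share and −9.37 in fold enrichment. Against other peaks, the fold enrichment differed by 0.168 with any overlap and 0.327 without receptor genes, and by 1.11 to 1.29 under the other definitions. The length differed by 21.6 bp with any overlap, −1.96 with both criteria and −1.0 with equal numbers. The −10log10 p differed by 3.66 with summits within 500 bp, 1.91 with both criteria and −23.3 with equal numbers. The cause of these changes was not tested.

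Promoters with a peak in Aid+/+ and no Aid-/- clone numbered 1 within 500 bp, 1 with both criteria and 0 with equal numbers, and the reverse 2 within 500 bp, 2 with any overlap, 0 with both criteria, 0 at a p of at most 1e-10 and 0 with equal numbers. Within the experiment of both genotypes they numbered 91 and 119. Those in Aid+/+ iPS and no MEF numbered 135 within 500 bp and 50 with equal numbers, and the reverse 41, 24 with both criteria and 143. Those in Aid+/+ iPS and no ES line numbered 11 at a p of at most 1e-10, and the reverse 0, with 1 for both criteria and 1 for equal numbers. Regions with more tags in MEFs numbered 72 with total tags (18.3%, against 9.35% of all regions) and 25 with limma (6.35%, against 5.15%). Those with fewer numbered 29 with the length offset (7.36%, against 9.13%) and 99 with limma (25.1%, against 26.8%). For the recomputed pattern counts, other than those within the experiment of both genotypes, no share over all promoters is given.

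Without each replicate in turn, the difference in number ranged from 24.7 to 137 for Aid-/-, −612 to −421.5 for MEFs and −858.5 to −84 for ES lines. That in share ranged from 0.148 to 0.385, 0.355 to 0.509 and −0.338 to 0.0134 (the last without ES replicate 2), and that in fold enrichment from −0.814 to 0.484 (the last without Aid-/- replicate 4), −2.90 to −1.92 and −3.25 to −1.18. The paired differences ranged from 5.53 to 6.30 for CpG-poor against CpG-rich shares, 0.422 to 0.659 for fold enrichment, 7.88 to 14.1 bp for length, −10.8 to −5.04 for −10log10 p and −25.1 to −24.7 for the upstream share. The patterns ranged from 2 to 13 and 1 to 23 (genotypes), 231 to 349 and 65 to 111 (MEFs) and 19 to 345 and 2 to 14 (ES lines), and regions higher and lower from 0 to 1 and 0 to 0, 140 to 169 and 28 to 70, and 0 to 8 and 0 to 39. With a sample left out the pattern rule is looser for every promoter, and no share over all promoters is given for these ranges. For MEFs the regions higher were 35.5 to 42.9% of members and 19.1 to 27.2% of all regions. Those lower were 7.11 to 17.8% and 12.1 to 24.8%.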
